A study of Rattus norvegicus with 8 samples.

Results

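CXC and CX3C chemokines were examined in rat carotid arteries after balloon injury. The set holds 9 ligand genes, Cxcl1, Cxcl9, Cxcl10, Cxcl11, Cxcl12, Cxcl13, Cxcl14, Cxcl16 and Cx3cl1. They were found by their symbols among the 37209 genes of the count table, and all 9 had a row. The animals were male Sprague-Dawley rats with no stated genetic change, and their age was not given. In the injured group the left carotid artery had been dilated with a balloon catheter and was taken 2 weeks later. The control group consisted of right carotid arteries without injury from such animals, which the paper describes as self-controls. Control arteries thus also came from operated rats. RNA of 4 injured and 4 control arteries was sequenced in bulk, and the paper does not state which layers of the vessel were kept for it. The labels do not say which injured and control arteries shared an animal. In such bulk RNA, fewer cells of a type and less RNA per cell cannot be told apart.

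Chemokines are small secreted proteins that steer white blood cells and some stromal cells along concentration gradients by way of G protein-coupled receptors. In the CXC class the first pair of conserved cysteines is separated by a single residue. CXC ligands with an ELR motif, such as Cxcl1, attract neutrophils, while Cxcl9, Cxcl10 and Cxcl11 are induced by interferon-gamma and attract activated T cells through Cxcr3. Cxcl12 keeps progenitor cells and lymphocytes in their niches, and Cxcl13 organizes B cell follicles. Cxcl16 and Cx3cl1, which is also called fractalkine, are made as membrane proteins that can be shed. In the vessel wall, chemokines are known for their part in leukocyte entry and in the growth of the neointima.

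The libraries held between 11459632 and 16658089 counted reads. Levels are given as CPM, counts per 1000000 reads after scaling with the trimmed mean of M values (TMM), and 3 reads in a library stood for 0.167 to 0.246 CPM, a floor that covers counting error only. A gene was called when the false discovery rate (FDR, the Benjamini-Hochberg adjusted p) of edgeR's quasi-likelihood test was under 0.05 and the fold change was above 2. SE is the standard error of a log2 fold change, derived as its absolute value divided by the square root of the test's F statistic. These p-values measure the spread between arteries. Control artery 4 stood apart from the other libraries. Its log2 CPM had correlations across genes of 0.83 to 0.852 with the other controls, against 0.976 to 0.978 among those. It also had 10262 CPM in sum of 7 sympathetic neuron markers, against at most 7.75 CPM in the other controls and 2964 CPM in injured artery 3. One protocol field of the labels names prefrontal cortex, whereas the others name the carotid artery, and 5 forebrain neuron markers reached at most 34 reads in any library. Contractile smooth muscle markers, which define the medial layer of an artery, summed to 16999 to 50110 CPM in the controls and 10331 to 16352 CPM in the injured arteries.

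Of the 9 ligand genes, 8 had enough reads for the test, and Cxcl9, Cxcl10, Cxcl12, Cxcl13 and Cxcl14 were called higher in the injured arteries. The edgeR test called 0 of them lower, 0 were lower at an unadjusted p under 0.05, and DESeq2 called 0 lower. Cx3cl1 was the only tested ligand with a negative log2 fold change. For comparison, 8.31% of the 14359 genes tested in the whole table were called higher and 2.57% were called lower. The median log2 fold change was 2.26 over the 8 tested ligands and -0.06 over all genes tested. In 6 of the 8, every injured artery lay above every control artery, which held for 14.3% of all tested genes, while the opposite held for 9.44% of them and for 0 of the ligands. Cxcl12, Cxcl14, Cxcl16 and Cx3cl1 had enough reads in all 4 controls alone. The other 4, Cxcl1, Cxcl9, Cxcl10 and Cxcl13, entered the test only with the reads of the injured arteries, so their presence among the tested genes already favoured a higher value after injury.

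**Figure D1:**
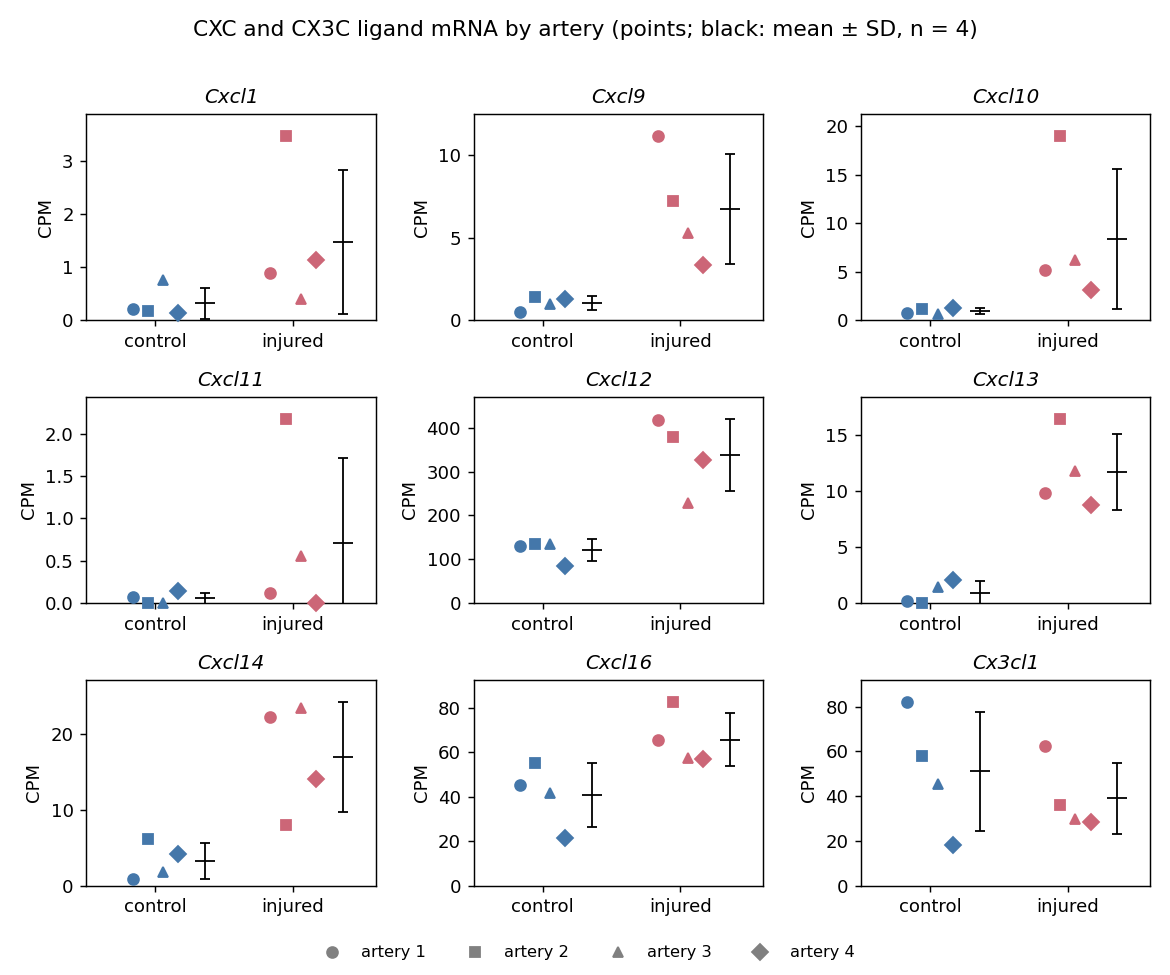
Level of each ligand mRNA in CPM (linear axes from 0) in the 4 control and 4 injured arteries, with the symbol giving the artery's number and black bars giving the mean ± SD, cut at 0 where the SD exceeds the mean. Cxcl9, Cxcl10, Cxcl12, Cxcl13, Cxcl14 and Cxcl16 show no overlap between groups, and injured artery 2 has the highest value of Cxcl1, Cxcl10, Cxcl11, Cxcl13 and Cxcl16.

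Cxcl1, Cxcl9, Cxcl10 and Cxcl11 are also the ligands with matches to inflammatory promoter motifs. All 9 genes were matched by symbol to promoter windows of RefSeq (build GRCr8, 250 bases before to 50 bases after the annotated start). Both strands were searched for GAAANNGAA, the core of the interferon-stimulated response element, for TTCNNNGAA, the gamma-activated sequence of interferon-gamma signalling, and for GGGAANTTC, a form of the kB sequence bound by NF-kB. The search found a match in 4 of the 9 windows. Of 33469 windows in the annotation, 9.71% held the first motif, 8.87% the gamma-activated sequence and 1.24% the kB-type sequence. A match is a description of letters and not a binding site, and no match says only that these letters are missing from the window. The bases before the start are shown for the 4 genes with a match, since these hold the letters that set them apart from the other ligands. They are written 5′ to 3′ on the gene's strand, with matches in capitals.
Cxcl1 (chr14:17479322-17479571, minus strand): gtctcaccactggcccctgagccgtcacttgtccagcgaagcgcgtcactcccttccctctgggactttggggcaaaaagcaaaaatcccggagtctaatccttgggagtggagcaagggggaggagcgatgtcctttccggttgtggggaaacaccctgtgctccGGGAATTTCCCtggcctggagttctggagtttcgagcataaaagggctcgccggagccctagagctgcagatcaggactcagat
Cxcl9 (chr14:16006916-16007165, plus strand): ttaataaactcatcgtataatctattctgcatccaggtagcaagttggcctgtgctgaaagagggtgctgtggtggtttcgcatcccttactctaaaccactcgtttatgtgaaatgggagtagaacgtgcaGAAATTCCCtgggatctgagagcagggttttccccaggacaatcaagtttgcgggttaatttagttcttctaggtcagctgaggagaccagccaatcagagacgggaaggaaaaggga
Cxcl10 (chr14:15988816-15989065, plus strand): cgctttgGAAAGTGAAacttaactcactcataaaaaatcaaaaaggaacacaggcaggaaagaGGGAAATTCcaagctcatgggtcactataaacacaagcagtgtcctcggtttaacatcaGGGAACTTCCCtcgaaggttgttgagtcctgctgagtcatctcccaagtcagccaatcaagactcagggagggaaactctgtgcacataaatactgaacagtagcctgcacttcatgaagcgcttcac
Cxcl11 (chr14:15973478-15973727, plus strand): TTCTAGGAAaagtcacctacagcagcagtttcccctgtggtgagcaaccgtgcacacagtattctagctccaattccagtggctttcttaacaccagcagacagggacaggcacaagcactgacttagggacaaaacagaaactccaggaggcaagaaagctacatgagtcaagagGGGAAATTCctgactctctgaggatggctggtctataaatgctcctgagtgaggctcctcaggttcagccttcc
In Cxcl1 the capitals mark a kB-type match on each strand, which overlap, 84 and 82 bases before the start. Cxcl9 had a kB-type match 118 bases before the start, and a gamma-activated sequence 32 bases after it that is not shown. Cxcl10 had the interferon-stimulated core 243 bases before the start, a kB-type match at 187 bases and an overlapping pair of kB-type matches at 128 and 126 bases. Cxcl11 had a gamma-activated sequence at 250 bases and a kB-type match at 74 bases before the start. No motif overlapped a different motif in these windows. Cxcl11, Cxcl10 and Cxcl9 lie next to each other in this order on chromosome 14, and Cxcl1 lies on the same chromosome beside Cxcl2.

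Cxcl9, an interferon-gamma induced attractant of T cells and natural killer cells, rose 6.45-fold after injury. Its level was 0.504, 1.39, 0.969 and 1.30 CPM in control arteries 1 to 4 and 11.2, 7.24, 5.30 and 3.35 CPM in injured arteries 1 to 4. Every injured artery lay above every control, with artery 1 the highest and artery 4 the lowest. The mean was 1.04 ± 0.402 CPM (SD, n = 4) in controls and 6.76 ± 3.34 CPM (SD, n = 4) after injury, for a log2 fold change of 2.69 (SE 0.46, edgeR FDR = 0.0063). In its promoter window the letters matched a kB-type sequence before the start and a gamma-activated sequence after it. Their part in the rise was not tested.

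Cxcl10, which is induced by interferons and by NF-kB and binds the same receptor, rose 8.90-fold. Control arteries had 0.72, 1.15, 0.623 and 1.23 CPM of Cxcl10 and injured arteries had 5.13, 19.0, 6.25 and 3.10 CPM. The groups did not overlap, and injured artery 2 stood highest, at 6.11 times the level of injured artery 4. The mean went from 0.93 ± 0.303 to 8.37 ± 7.19 CPM (mean ± SD, n = 4 each), and the log2 fold change was 3.15 (SE 0.61, edgeR FDR = 0.0105). Without injured artery 2 the log2 value was 2.37, still called (edgeR FDR = 0.0111). Art3, an ADP-ribosyltransferase gene, overlaps Cxcl10 and Cxcl11 in the annotation, and whether the counting used strand was not given. Art3 had 53 to 882 reads in the controls and 239 to 1436 reads after injury. Among controls Art3 and Cxcl10 were both highest in artery 4, while among injured arteries Art3 was highest in artery 3 and Cxcl10 in artery 2. The part of Art3 reads in the counts of Cxcl10 and Cxcl11 was not tested.

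Cxcl11, the ligand with the highest known affinity for Cxcr3, was close to the limit of detection. It had 1, 0, 0 and 2 reads in control arteries 1 to 4 and 2, 30, 10 and 0 reads in injured arteries 1 to 4. The groups overlapped, and 71.4% of the 42 reads after injury came from injured artery 2. Summed over the arteries, the ratio of injured to control reads, scaled for library size, was 12.7 (exact 95% counting interval 4.07 to 64.2), and without injured artery 2 it was 4.70 (1.27 to 26.0). These intervals cover counting error only, and the exact permutation test over arteries gave p = 0.257, two-sided. DESeq2, which also tested genes with few reads, put the log2 fold change of Cxcl11 at 3.72 with an FDR of 0.0998, so that it was not called there either.

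Cxcl1, the ELR-type ligand in this set, did not pass the test. Its level was 0.216, 0.164, 0.762 and 0.137 CPM in the controls and 0.896, 3.48, 0.391 and 1.14 CPM after injury. Injured artery 3 lay below control artery 3, and injured artery 2 held 57.1% of the reads of the injured group. The mean was 0.32 ± 0.297 CPM (SD, n = 4) in controls and 1.48 ± 1.37 CPM (SD, n = 4) after injury. The log2 fold change was 2.15 (SE 0.81, edgeR FDR = 0.112), and an exact permutation test gave p = 0.0571, two-sided. Without injured artery 2 the log2 value was 1.29, and without control artery 3 it was 3.02, with no call in either fit. Cxcl1, Cxcl2 and Cxcl3 are similar in sequence, and how the counting divided reads between them was not given in the sources used here.

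Cxcl12, a ligand made by stromal and vascular cells that binds Cxcr4 and the scavenging receptor Ackr3, rose 2.79-fold. It had 131, 134, 135 and 84.2 CPM in control arteries 1 to 4 and 419, 378, 229 and 327 CPM in injured arteries 1 to 4. All injured arteries were above all controls, and control artery 4 was the lowest of the 8. The mean rose from 121 ± 24.6 to 338 ± 82.1 CPM (mean ± SD, n = 4 each), and the log2 fold change was 1.48 (SE 0.23, edgeR FDR = 0.00413). Cxcl12 kept a log2 fold change of 1.34 without control artery 4 (edgeR FDR = 0.00212). Reads of Cxcl12 made up 50.1% to 63.4% of all reads on the 9 ligand genes in each control and 62.9% to 73.8% in each injured artery. Reads per gene also depend on transcript length, which was not at hand, so levels were not ranked between genes.

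Cxcl13, which attracts B cells and follicular helper T cells through Cxcr5, had the largest fold change of the ligands that were called, 12.5-fold. Its level was 0.144, 0, 1.45 and 2.05 CPM in the controls and 9.85, 16.4, 11.8 and 8.74 CPM after injury. The lowest injured artery was still above the highest control, artery 4. The mean was 0.912 ± 1.00 CPM (SD, n = 4) in the controls and 11.7 ± 3.40 CPM (SD, n = 4) after injury, for a log2 fold change of 3.64 (SE 0.96, edgeR FDR = 0.0352). The call depended on which arteries were included. With each artery left out in turn, Cxcl13 was called by edgeR only without control artery 2 or control artery 4, the latter at a log2 fold change of 4.39, and the adjusted p was 0.0588 to 0.0992 in the other 6 fits, at log2 fold changes between 3.29 and 3.94.

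Cxcl14, a chemokine of epithelia and fibroblasts whose receptor is less well settled, rose 5.18-fold. Control arteries had 0.936, 6.15, 1.87 and 4.17 CPM and injured arteries had 22.3, 8.04, 23.5 and 14.1 CPM. Injured arteries 1 and 3 were highest, and injured artery 2, which led for several other ligands, was the lowest of its group and only just above control artery 2. The mean went from 3.28 ± 2.34 to 17.01 ± 7.30 CPM (mean ± SD, n = 4 each), and the log2 fold change was 2.37 (SE 0.60, edgeR FDR = 0.0311). Leaving out control artery 3, injured artery 1, injured artery 3 or injured artery 4 ended the call, with adjusted p values from edgeR of 0.064 to 0.0856 and log2 fold changes of 2.17 to 2.45.

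Cxcl16 and Cx3cl1, the membrane-anchored ligands, were not called. Cxcl16, which binds Cxcr6 and also acts as a scavenger receptor for oxidized lipoprotein, had 45.3, 55.4, 41.7 and 21.3 CPM in the controls and 65.6, 82.8, 57.5 and 57.2 CPM after injury. The groups did not overlap, with means of 40.9 ± 14.3 CPM and 65.8 ± 12.0 CPM (SD, n = 4 each). Its log2 fold change of 0.68 (SE 0.27) came with an edgeR FDR of 0.13 and an unadjusted edgeR p of 0.0361. The exact permutation test gave p = 0.0286, two-sided and also unadjusted, the smallest p that 4 arteries against 4 allow. Zmynd15 overlaps Cxcl16 in the annotation and had 18 to 42 reads in the controls and 43 to 77 after injury, against 311 to 676 and 700 to 1144 reads of Cxcl16. Cx3cl1, an adhesive ligand of endothelial and neuronal cells that holds monocytes, had 82.2, 58.1, 45.6 and 18.3 CPM in the controls and 62.3, 36.0, 29.7 and 28.3 CPM after injury. The control values enclosed all the injured ones, and the log2 fold change was -0.38 (SE 0.44, edgeR FDR = 0.596), or -0.67 (edgeR FDR = 0.141) without control artery 4. The 6 endothelial markers summed to 732 to 2035 CPM in the controls and 597 to 865 CPM after injury, but the sum followed Vwf, which was called lower at a log2 fold change of -1.65. Cdh5, Kdr and Emcn were called higher at 1.06, 2.03 and 1.43, and the median of the 6 was 0.40. Their part in the level of Cx3cl1 was not tested.

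**Figure D2:**
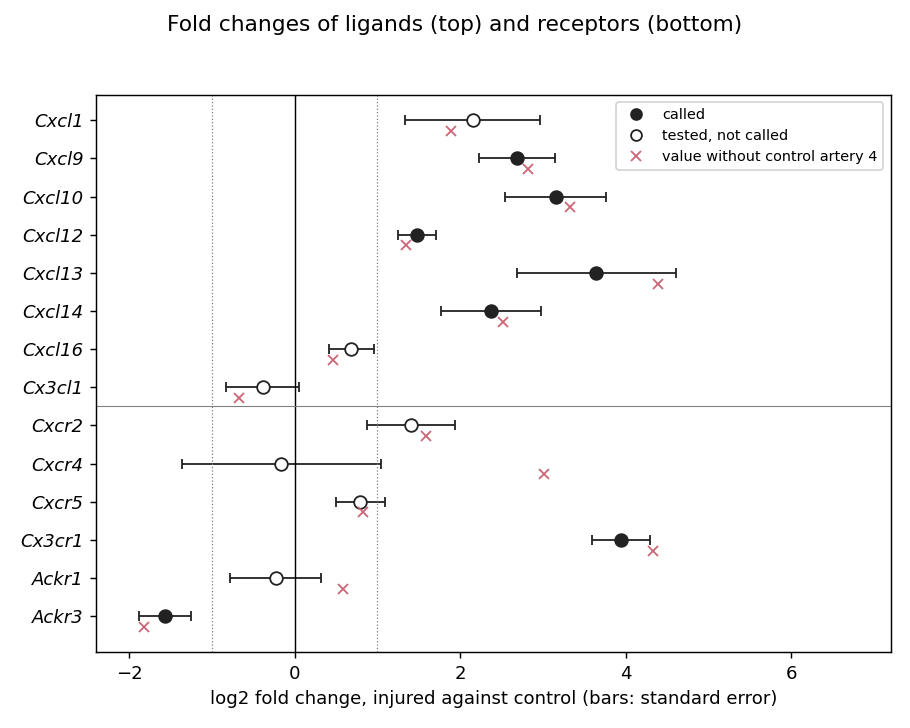
Fold changes on the log2 scale from edgeR, injured against control, for the 8 tested ligands and the 6 tested receptors, with standard error bars and dotted lines at a fold change of 2 in either direction. Filled circles mark called genes and crosses the value without control artery 4, which moves Cxcr4 from -0.16 to 3.02 and leaves the called ligands above the upper line.

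The ligands differed in how they varied among the injured arteries. The ratio of the highest to the lowest injured artery was 8.90 for Cxcl1, 6.11 for Cxcl10 and 3.33 for Cxcl9, and 2.93 for Cxcl14. It was 2.20 for Cx3cl1, 1.88 for Cxcl13, 1.83 for Cxcl12 and 1.45 for Cxcl16. Injured artery 2 had the highest level of 5 ligands, injured artery 1 that of Cxcl9, Cxcl12 and Cx3cl1, and injured artery 3 only that of Cxcl14. Injured artery 4 had the lowest level of 6 of the 9. Summed over the 9 genes, ligand mRNA was 219 ± 59.6 CPM (SD, n = 4) in controls, with a range of 133 to 261 CPM, and 489 ± 106 CPM (SD, n = 4) after injury, with a range of 364 to 596 CPM.

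Markers of white blood cells and of some other cells moved with these ligands. The macrophage markers Cd68, Adgre1, Csf1r, Cd163, Mrc1, C1qa and C1qb, summed to 141 to 199 CPM in controls and 593 to 776 CPM after injury, and 6 of them were called higher. The 5 T cell markers summed to 0.478 to 6.15 CPM and 7.48 to 17.4 CPM, and 1 of 5 was called. The sum of 5 neutrophil markers was 0.957 to 1.52 CPM in controls and 7.03 to 23.5 CPM after injury, highest in injured artery 2, and both markers with enough reads were called higher. The 5 B cell markers had at most 0.346 CPM in sum in a control and 1.34 to 2.45 CPM after injury, none could be tested, and Cd79a had 0 reads throughout. Lymphatic endothelial markers summed to 26.3 to 48.9 CPM and 56.1 to 88.2 CPM, with 2 of 4 called higher. The sum of 5 adventitial fibroblast markers overlapped between the groups, with 1773 to 3547 CPM in controls and 1820 to 3116 CPM after injury, but Dpt was called higher (log2 fold change 2.03) and Pi16 and Dcn lower (-1.56 and -1.15). Skeletal muscle markers summed to 81.3 to 252 CPM in controls and 202 to 776 CPM after injury, and Myh4, Mylpf and Tnnt3 were called higher among 5. The called markers Cd2, S100a9, Csf3r, Myh4 and Mylpf had too few reads in the controls alone. They entered the test only with the reads of the injured arteries, which already favoured a higher value. Of all genes tested, 8.31% were called higher and 2.57% lower. The part of these cells in the ligand levels was not tested.

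Among the 9 receptor genes, 6 were tested, of which Cx3cr1 was called higher and Ackr3 lower. Of all genes tested, 8.31% were called higher and 2.57% lower. The median log2 fold change was 0.32 over the 6 receptors and -0.06 over all genes tested. Cxcr4 was called higher without control artery 4. Cx3cr1, the fractalkine receptor of monocytes and macrophages, had 1.66, 1.72, 2.28 and 4.17 CPM in controls and 34.2, 50.8, 35.2 and 32.7 CPM after injury. The groups lay far apart, and the highest values were in injured artery 2 and control artery 4. The log2 fold change was 3.94 (SE 0.35, edgeR FDR = 0.000456), a 15.4-fold rise, while its ligand Cx3cl1 had -0.38. There were 4.38 to 49.7 reads of Cx3cl1 for each read of Cx3cr1 in the controls and 0.708 to 1.82 in the injured arteries.

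Ackr3, which binds and removes Cxcl12 and is listed in the table under its synonym Cxcr7, fell 2.96-fold. It had 170, 225, 190 and 72.3 CPM in the controls and 67.6, 49.9, 48.8 and 55.3 CPM after injury. Every injured artery lay below every control, and control artery 4 was close to the injured group. The mean went from 164 ± 65.3 to 55.4 ± 8.62 CPM (mean ± SD, n = 4 each), and the log2 fold change was -1.57 (SE 0.32, edgeR FDR = 0.0127). Ackr3 was not called with the replicate number as a block (edgeR FDR = 0.054) or in edgeR's test of a fold change over 2 (FDR = 0.221). Cxcl12 gave 0.595 to 1.17 reads for each Ackr3 read in the controls and 4.69 to 7.58 in the injured arteries. These ratios could not overlap, because neither gene overlapped between the groups.

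**Figure D3:**
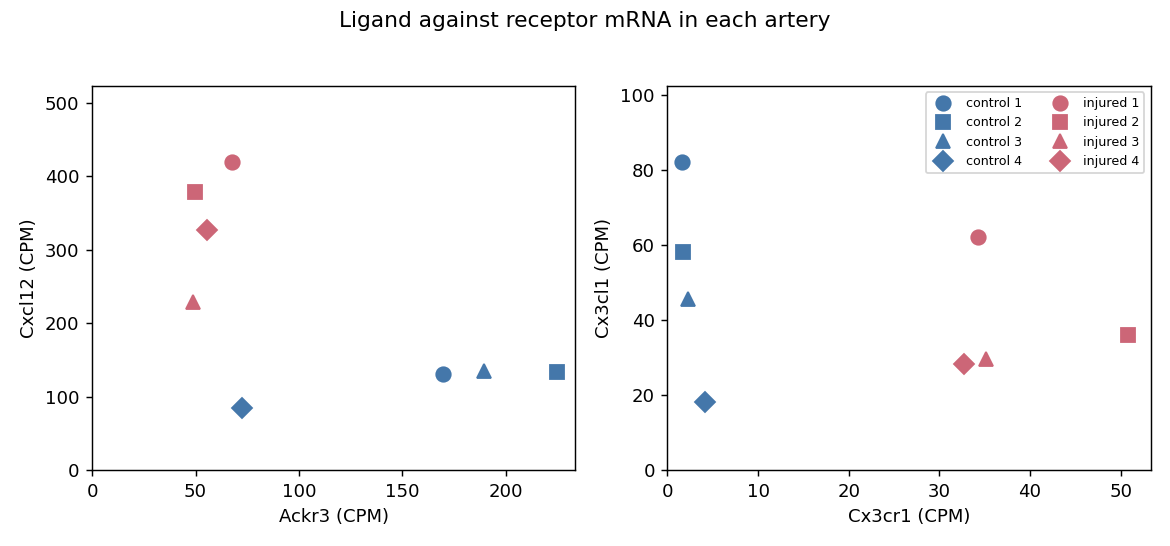
Ligand level against receptor level in each artery, both in CPM on linear axes from 0, for Cxcl12 and Ackr3 (left) and for Cx3cl1 and Cx3cr1 (right). On the left the injured arteries lie at high Cxcl12 and low Ackr3, and on the right they lie at high Cx3cr1 with Cx3cl1 inside the control range of 18.3 to 82.2 CPM.

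Cxcr4, the signalling receptor for Cxcl12, depended on control artery 4. Its level was 0.792, 2.95, 3.05 and 74.2 CPM in the controls and 14.6, 23.5, 19.6 and 15.8 CPM after injury. The injured arteries lay above control arteries 1 to 3 and below control artery 4, in which sympathetic neuron markers were also highest, and the part of those cells was not tested. Over all 8 arteries the log2 fold change was -0.16 (SE 1.21, edgeR FDR = 0.944). Without control artery 4 it was 3.02 with an adjusted p of 0.00219 from edgeR, and Cxcr4 was then called higher.

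Cxcr6, the receptor for Cxcl16 on T cells, was rarely counted in the controls. It had 0, 2, 0 and 0 reads in control arteries 1 to 4 and 23, 22, 11 and 8 reads in the injured arteries, which did not overlap with the controls. It had enough reads in 0 controls and 3 injured arteries and was filtered out before the edgeR test for its low counts. The edgeR fits with arteries left out that kept Cxcr6 did so only through the injured arteries, which already favoured a higher value. The ratio of summed reads, scaled for library size, was 29.1 (exact 95% counting interval 7.73 to 245), and the exact permutation test gave p = 0.0286, two-sided. Cxcr6 was called higher in the alternatives that kept it, among them DESeq2, with a log2 fold change of 4.83 (FDR = 0.0012), and edgeR with no filter on counts, with 4.52 (FDR = 0.0274).

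The remaining receptors gave no call. Cxcr2, the neutrophil receptor for Cxcl1, had 0.246 to 0.864 CPM in controls and 0.725 to 2.61 CPM after injury, a log2 fold change of 1.41 (SE 0.53, edgeR FDR = 0.112). Cxcr5, the B cell receptor for Cxcl13, had 1.22 to 3.03 CPM in controls and 3.33 to 4.74 CPM after injury without overlap, and its log2 fold change was 0.80 (edgeR FDR = 0.109). Ackr1, a scavenging receptor of venular endothelium and red cells, had a log2 fold change of -0.23 (edgeR FDR = 0.811), and its highest level was again in control artery 4, at 56.3 CPM. Cxcr1 had 2 reads, both in injured artery 2. Cxcr3, the receptor for Cxcl9, Cxcl10 and Cxcl11, had 0 reads in all 8 libraries, a state shared by 37.0% of the rows in the table. A row at 0 was not read as absence of the mRNA.

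**Figure D4:**
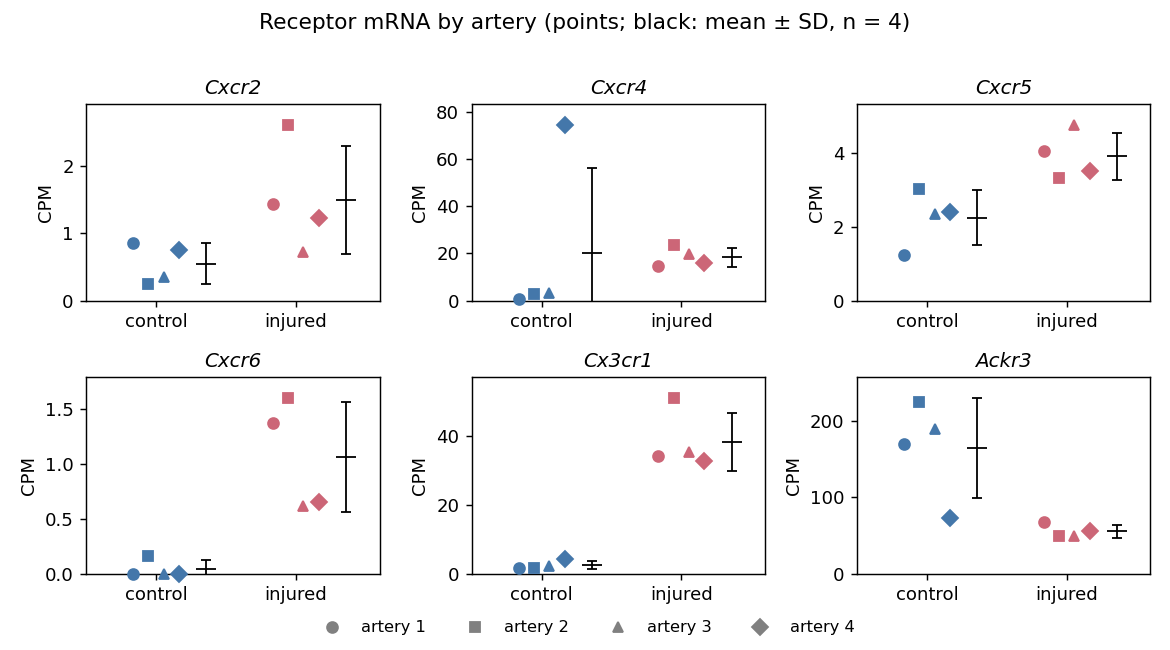
Level of 6 receptor mRNAs in CPM (linear axes from 0) by artery, with black bars for the mean ± SD (n = 4), cut at 0 where the SD exceeds the mean. Cx3cr1 and Ackr3 separate the groups in opposite directions, and control artery 4 lies at 74.2 CPM of Cxcr4 against at most 3.05 CPM in the other controls.

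Other CXC ligands of the rat genome were read for comparison. Cxcl6, which carries the ELR motif too, had no reads in the controls and 2, 60, 14 and 4 reads in the injured arteries. Against a floor of 3 reads over the control group it was at least 24.2-fold higher, and 75.0% of its 80 reads came from injured artery 2, without which the bound was 7.84-fold. DESeq2 called Cxcl6 with an adjusted p of 0.000577, whereas edgeR without a filter gave 0.0757. Cxcl2 had 32 reads after injury and 4 in the controls, a ratio of 7.27 (exact 95% counting interval 2.58 to 28.3), or 4.70 (1.52 to 19.3) without injured artery 2, which held 16 of the 32 reads. Cxcl3 had 15 reads after injury and none in the controls, at least 4.54-fold more. Cxcl17, a chemokine of mucosal surfaces, had 15 and 1 reads, a ratio of 13.6 (2.10 to 574), with 66.7% of the injured reads in injured artery 2, and 5.88 (0.658 to 278) without it. Pf4, the platelet and megakaryocyte chemokine Cxcl4, was the only gene of this list with enough reads for the edgeR test and was not called, with 8.37 ± 3.94 CPM in controls and 17.4 ± 4.60 CPM after injury (SD, n = 4 each), and its log2 fold change was 1.06 (edgeR FDR = 0.115). Ppbp, a related platelet chemokine, had at most 4 reads in any artery. The edgeR count of calls in this list was thus 0, with 1 gene at an unadjusted p under 0.05, while DESeq2 called 1. Over all genes tested, edgeR called 8.31% higher and 2.57% lower.

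The interferon-gamma response genes were read because 3 of the ligands belong to that response. Among all 14359 genes tested, 8.31% were called higher, 2.57% lower, and 6494 had a positive log2 fold change. Of the 13 genes of this list, 12 were tested, and 4 were called higher and 0 lower. All 12 had a positive log2 fold change, and the median was 0.69. At an unadjusted p under 0.05, 9 were higher and 0 lower by edgeR, and DESeq2 called 4 higher and 0 lower. Ciita, the master regulator of MHC class II genes, rose from 0.288 to 2.87 CPM in controls to between 15.3 and 18.2 CPM after injury, a log2 fold change of 3.43 (edgeR FDR = 0.00544). It had enough reads in 3 controls and entered the test only with the reads of the injured arteries. Irf8, a transcription factor of monocytes and dendritic cells, had 11.2 to 18.9 CPM and 50.2 to 82.8 CPM, a log2 fold change of 2.16 (edgeR FDR = 0.000843). Gbp2 and Tap1 were also called, with log2 fold changes of 1.84 and 1.04, but Tap1 was not called without injured artery 2. Socs1, the feedback inhibitor of the pathway, lay lowest at 0.02 (edgeR FDR = 0.976). Ifng itself had 0.0615 CPM on average in controls and 0.0613 CPM after injury, under the floor of 3 reads.

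The interleukin-1 and tumor necrosis factor list holds genes of the response that also induces Cxcl1 and Cxcl10. Of 10 genes, 7 were tested by edgeR, 2 were called higher and 0 lower, against 8.31% and 2.57% of all genes tested. The median log2 fold change was 0.81. At an unadjusted p under 0.05 there were 4 higher and 0 lower, and DESeq2 called 2 higher and 0 lower. Il1b, the cytokine interleukin-1 beta, had 0.072 to 0.41 CPM in the controls and 5.91, 15.9, 2.90 and 3.59 CPM in injured arteries 1 to 4. It had enough reads in 0 controls and entered the test only with the reads of the injured arteries. Its log2 fold change was 4.48 (SE 0.73, edgeR FDR = 0.00516). Its highest level was in injured artery 2, which was also highest in Cxcl1, Cxcl10, Cxcl11, Cxcl13 and Cxcl16 but not in Cxcl9, and without that artery its log2 fold change was 3.70, still called. Nfkbiz, a nuclear cofactor of NF-kB, had a log2 fold change of 2.25 (edgeR FDR = 0.00395). Ptgs2, the inducible cyclooxygenase, was the lowest of the list at -0.90 (edgeR FDR = 0.67), with 10.7 to 279 CPM in the injured arteries. It was -2.70 without injured artery 1 and -0.27 without control artery 1, and was called in neither fit.

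Genes of organized lymphoid tissue were read beside Cxcl13. Of all genes tested, edgeR called 8.31% higher and 2.57% lower. Over the 4 tested of 10 lymphoid tissue genes the median log2 fold change was 0.92. Among these, edgeR called 2 higher and 0 lower, with 3 higher and 0 lower at an unadjusted p under 0.05. DESeq2 called 2 higher and 0 lower. Ccl21, which guides T cells and dendritic cells from lymphatic vessels, had 0.648 to 10.3 CPM in controls and 22.0 to 75.2 CPM after injury, a log2 fold change of 2.85 (edgeR FDR = 0.0381). It had enough reads in 3 controls and entered the test only with the reads of the injured arteries. The call for Ccl21 ended when control artery 2, control artery 3, injured artery 2 or injured artery 4 was left out, with adjusted p values from edgeR of 0.0754 to 0.109. Tnfsf13b, the B cell survival factor BAFF, rose by 1.45 on the log2 scale (edgeR FDR = 0.00828). Ccl19, the companion ligand of Ccl21, had -0.28 (edgeR FDR = 0.691). Ltb and Tnfsf11 had 0 reads throughout.

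For each called ligand, the genes most like it were searched among 12374 tested genes. Left out were the ligands of this set and symbols that begin with LOC, RGD, AABR or AC followed by digits. The genes chosen were those with the highest Pearson correlation of log2 CPM over the 8 arteries. These were the complement gene C2 (r = 0.980) and the orphan receptor gene Gpr160 (0.978) for Cxcl9. For Cxcl10 they were Parp14 (0.984), an ADP-ribosyltransferase gene, and Moxd1 (0.982), a monooxygenase gene. Cxcl12 was most like Pabpc1 (0.992), which encodes a poly(A)-binding protein, and Sfrp4 (0.988), which encodes a secreted Wnt antagonist. Cxcl13 was most like Pou2f2 (0.986), a transcription factor gene of B cells, and Chek2 (0.984), a checkpoint kinase gene. Cxcl14 was most like the chemokine receptor gene Ccr7 (0.982) and the kinesin gene Kif24 (0.977). All points shared the same 8 libraries and the difference between the groups, so the coefficients are given as a description.

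**Figure D5:**
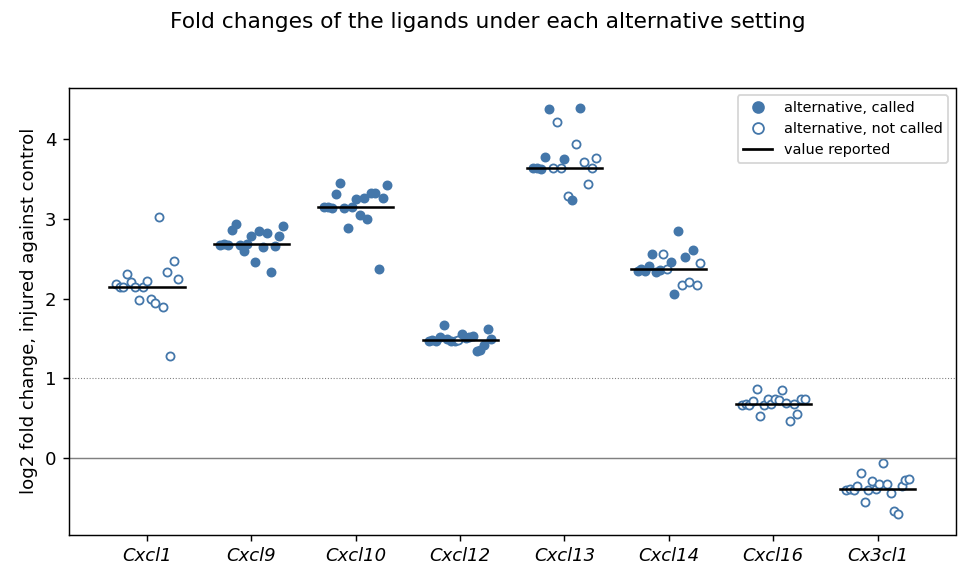
Log2 fold change of each tested ligand, injured against control, in the reported fit (black line) and under every alternative setting (circles, filled where the gene was called). Cxcl9 and Cxcl10 are filled throughout, Cxcl12 is open only in the test of a fold change over 2, Cxcl1, Cxcl16 and Cx3cl1 are open throughout, and Cxcl13 and Cxcl14 are mixed.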

How the data were processed

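The authors deposited 1 table of raw counts, the number of reads per gene symbol, for 4 injured and 4 control arteries. The submitters' processing notes name HISAT2 2.0.4. The counting tool, genome build, annotation and strand setting were not given in the sources used here. The table held 0 columns of other samples. Library totals were 11459632 to 16658089 reads, and the table's length column is genomic span, not transcript length. Counts were filtered with filterByExpr, scaled with TMM and compared with the quasi-likelihood test of edgeR 4.0.16 in R 4.3.3, with 14359 genes tested and p-values adjusted over all of them. Calls used the study's criteria, a fold change above 2 at an FDR under 0.05. DESeq2 1.42.0 was an alternative, as were other scalings and filters, the replicate number as a block, and leaving out each artery. The scripts were tested on simulated data. Levels are CPM, log2 CPM used a prior count of 2, and exact permutation tests covered single genes. Symbols were matched as given, with Ackr3 found by its GRCr8 synonym Cxcr7.

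The ligands and gene lists were chosen with earlier results of these data known, and the study's own list of changed extracellular genes holds Cxcl6, Cxcl12, Cxcl13 and Cxcl14, so their direction is not independent evidence. Named genes were all ligands, receptors and other CXC ligands, from each remaining list the 2 largest and the smallest log2 fold change among tested genes, the 2 genes most correlated with each called ligand, and markers that moved with a result. Gbp2, Tap1, Ifng, Ltb, Tnfsf11, Art3 and Zmynd15 were named after their values were seen where that rule did not cover them.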

Additional observations from a re-analysis of the deposited data

Results flagged for a closer look

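Among 43 groups of 4 arteries examined for the ligands, receptors and other CXC ligands, 9 had an artery whose gap to its nearest neighbour, divided by the range of the group, was above Dixon's 95% critical value for 4 samples. With independent, normally distributed values about 1 in 20 such groups would be flagged, or 2.15 of 43. These groups hold CPM values of the same libraries, some from very few reads. The figure of 2.15 is therefore not the number to be set against the 9. Control artery 4 was the artery apart in 3 of the 9. It was high in Cxcr4 (ratio 0.969), at 74.2 CPM against 3.05 CPM in the next control. It was also high in Ackr1 (0.831), at 56.3 against 18.8 CPM, and low in Cxcl12 (0.906), at 84.2 against 131 CPM. Control artery 3 was high in Cxcl1 (0.873), at 0.762 against 0.216 CPM. Injured artery 2 was high in Cx3cr1 (0.863), at 50.8 against 35.2 CPM, and in Cxcl6 (0.843), at 4.34 against 0.781 CPM. A ratio of 1.0 was also reached in 3 groups because a single artery held all their reads. These were Cxcr1 in injured artery 2 with 2 reads, Cxcr6 in control artery 2 with 2 reads, and Cxcl17 in control artery 3 with 1 read.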

How the results depend on the processing

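Cxcl9 and Cxcl10 were called under all 17 alternatives in which they were tested, and Cxcl12 under 17 of 18. Of the ligands, 5 were called as reported, 3 with the replicate block, 2 in the test of a fold change over 2, and 3 to 5 with each artery left out. With at least 10 counts in every library, 2 of the 4 ligands then tested were called. Cxcl9, Cxcl10 and Cxcl13 were not tested under that minimum. For the receptors the count was 2 as reported, 1 with the replicate block, 1 in the test of a fold change over 2, 2 to 4 with an artery left out (4 without control artery 4), and 5 with neither control artery 4 nor injured artery 3, an alternative chosen after seeing the data. DESeq2 called 1 of the other CXC ligands, against 0. By FDR alone 9 interferon-gamma response genes were called, against 4. Over all genes the calls were 2468 by FDR alone and 2473 without control artery 4 and injured artery 3, against 1562. A minimum of 10 counts in every library left 1 interleukin-1 and tumor necrosis factor response gene of 2, because Il1b was then not tested. The lymphoid tissue genes had 1 call of 2 with that minimum, under which Ccl21 was not tested. They had 0 calls in the test of a fold change over 2, and 1 to 2 with an artery left out. The log2 fold change of Cxcr4 changed sign with the replicate block (2.21), with upper-quartile factors (0.028), without control artery 4 (3.02) and with neither of the pair (2.99). Ackr1 did so with the replicate block (0.062), without control artery 4 (0.58) and with neither (0.28), and Ccl19 without control artery 1 (0.12). Socs1 did so without control artery 4 (-0.20), injured artery 1 (-0.02) or injured artery 2 (-0.14), and with neither of the pair (-0.13). With each artery left out, Cxcr4 ranged from -0.56 to 3.02, Ackr1 from -0.54 to 0.58, Socs1 from -0.20 to 0.15 and Ccl19 from -0.49 to 0.12. What caused these changes of sign was not tested. DESeq2 gave no adjusted p for Cxcr4, so that call is missing.

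Among all genes, the alternatives called 661 to 2473, against 1562. Scaling by library totals alone moved the median of all genes from -0.06 to 0.12 on the log2 scale. It raised the share of higher calls from 76.4% to 85.1%, and the test of a fold change over 2 raised it to 90.8%. FDR alone lowered it to 62.8%. The replicate block rests on a number that the labels do not tie to an animal. The paper describes the right carotid artery as a self-control. After each gene was centred on its group mean, control and injured arteries numbered 1 to 4 correlated at 0.301, 0.45, -0.52 and -0.416. Control artery 4 and injured artery 3 were highest in sympathetic neuron markers, and centring moves the other arteries of a group away from such an artery. These correlations therefore cannot show whether arteries with the same number shared an animal. The number was left out of the reported fit, and the paired fit called 1187 genes. Under it Cxcl13 had a log2 fold change of 4.22 (adjusted p = 0.0858 from edgeR), Cxcl14 2.56 (0.119) and Ackr3 -1.47 (0.054). Transcript lengths were not at hand, so scaling by length was not run. At this depth, a difference was not detectable where both groups lay under the floor of 3 reads in a library, 0.167 to 0.246 CPM.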
